A study of Homo sapiens with 2 samples.

Results

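The AP-1 transcription factors were followed through 10 genes chosen by name, FOS, FOSB, FOSL1, FOSL2, JUN, JUNB, JUND, ATF3, BATF3 and MAFF, out of 58051 genes in the count files. All 10 symbols matched 1 gene ID each. The cells were BEAS-2B, a line of immortalised human bronchial epithelial cells, with 1 RNA library of parental cells (genotype WT) and 1 of cells overexpressing the calcium-permeable channel TRPV3 (genotype TRPV3-OE). Both cultures were grown in LHC-9 medium on a coat of collagen and fibronectin, plated at equal densities, left without further treatment per the sample titles (UT) and frozen at confluence. The passage number was between 20 and 30 for the parental cells and between 4 and 8 for the TRPV3-OE cells, so passage and genotype cannot be told apart. The promoter that drove TRPV3, and whether the line was 1 clone or a pool, were not stated in the labels.

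AP-1 is a family of dimeric transcription factors with a basic region and a leucine zipper (bZIP). JUN proteins pair with each other or with FOS proteins, while FOS proteins need a JUN partner, and the dimers bind a short palindrome known as the TPA response element or its longer relative, the cyclic AMP response element (CRE). FOS, FOSB, JUN and JUNB are classical immediate early genes, switched on within minutes of growth factor, stress or calcium signals through MAP kinases, serum response factor (SRF) and CREB, and FOSL1 (FRA-1) and FOSL2 (FRA-2) commonly follow later. In airway epithelium AP-1 is known for its part in wound repair, in the response to irritants and smoke, and in squamous change.

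In the TRPV3-OE library FOS was lower, JUN slightly lower and JUNB higher, while FOSB did not differ beyond counting error, as described below. The promoter sequences of these 4 genes are shown. They come from RefSeq on GRCh38.p14, cover 250 bases before to 50 bases after the annotated start, run 5′ to 3′ on the gene's strand, and carry in capitals each match to TGACG, the core of a CRE, or to TGACATCA, the variant response element known from the JUN promoter.
FOS promoter, chr14:75278578-75278877, plus strand: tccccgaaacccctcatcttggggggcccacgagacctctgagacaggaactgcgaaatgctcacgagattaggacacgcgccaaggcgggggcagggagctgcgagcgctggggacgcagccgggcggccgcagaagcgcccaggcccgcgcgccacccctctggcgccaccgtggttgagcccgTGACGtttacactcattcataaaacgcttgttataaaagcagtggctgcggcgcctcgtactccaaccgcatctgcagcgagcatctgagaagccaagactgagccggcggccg
FOSB promoter, chr19:45467746-45468045, plus strand: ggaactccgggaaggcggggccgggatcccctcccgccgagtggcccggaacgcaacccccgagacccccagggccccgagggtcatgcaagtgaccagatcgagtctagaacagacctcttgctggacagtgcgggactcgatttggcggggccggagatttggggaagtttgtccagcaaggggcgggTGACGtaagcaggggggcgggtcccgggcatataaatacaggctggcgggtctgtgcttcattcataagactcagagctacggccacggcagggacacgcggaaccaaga
JUN promoter, chr1:58783998-58784297, minus strand: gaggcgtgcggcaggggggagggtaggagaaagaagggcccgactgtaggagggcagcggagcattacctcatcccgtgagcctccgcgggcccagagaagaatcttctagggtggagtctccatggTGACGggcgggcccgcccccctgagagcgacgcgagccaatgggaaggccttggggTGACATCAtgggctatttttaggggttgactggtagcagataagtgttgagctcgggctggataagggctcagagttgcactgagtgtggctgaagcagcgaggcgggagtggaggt
JUNB promoter, chr19:12791236-12791535, plus strand: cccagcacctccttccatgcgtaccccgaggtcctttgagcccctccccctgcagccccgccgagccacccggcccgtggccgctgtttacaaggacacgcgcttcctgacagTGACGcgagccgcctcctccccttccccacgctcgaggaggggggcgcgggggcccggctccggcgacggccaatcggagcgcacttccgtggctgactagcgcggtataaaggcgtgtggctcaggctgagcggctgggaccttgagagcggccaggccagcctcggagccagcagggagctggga
Such windows were at hand for 8 of the 10 genes, with 10 windows in all, and for FOSL1 and BATF3 there was none. On either strand TGACG was found in 7 of the 10 windows, and in 24.55% of all 35116 promoter windows of the same length. Those 7 windows belonged to 7 of the 8 genes (FOS, FOSB, FOSL2, JUN, JUNB, JUND and MAFF). They held 62% to 77% G and C, beside a mean of 57.53% in all windows. The first base of TGACG lay 64 bases before the annotated start in FOS, 60 in FOSB, 123 in JUN and 137 in JUNB. These RefSeq starts differ from the starts of the counted gene models, by 54 bases in FOS, 1 in FOSB, 280 in JUN and 10 in JUNB. The JUN window lies wholly within the counted JUN gene model. The full CRE palindrome TGACGTCA, which contains TGACG on both strands, was found in JUND and MAFF (1.848% of all windows). TGACATCA was found in JUN and in 1 of the 2 ATF3 windows (2.614%), which leave out the GENCODE 29 start of other long ATF3 transcripts, so that promoter of ATF3 was not examined. The TPA response element TGANTCA was found in FOSL2 alone among the 8 genes (7.709%). A CArG box, the 10-base element bound by SRF, was not among the letters of any of these windows (1.293% of all windows). The windows begin 250 bases before the start, so a CArG box further upstream, in FOS or another gene, could not be seen. TATAAA lay 33, 30 and 31 bases before the start in FOS, FOSB and JUNB, and in the other ATF3 window 230 bases before it (11.53%). These matches describe the letters, and binding was not measured.

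Counts summed to 17450658 in the parental and 17477953 in the TRPV3-OE library. TRPV3 had 26 and 54077 counts. Of 10 bronchial epithelial markers 9 were measured, led per length by the keratin genes KRT7 and KRT19, with a summed level of 8397 counts per 1000000 counts (CPM) in parental and 7711 CPM in TRPV3-OE cells. KRT17, a basal keratin gene, was the 1 marker called lower (log2 ratio -1.03), and NKX2-1, a lung lineage factor, had 0 counts in both. Fibroblast markers summed to 25.5 and 16.5 CPM with COL3A1 and LUM at 0 in both libraries and COL1A1 (410 and 285 counts) the only one measured. Endothelial markers summed to 16.7 and 3.26 CPM, nearly all of it CDH5 (268 and 35 counts), with KDR, TEK and CLDN5 at 0. Immune markers summed to 4.32 and 26.0 CPM, nearly all of it CD14 (72 and 460 counts), with PTPRC, CD3E, MS4A1 and LYZ at 0.

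The comparison asked how AP-1 transcripts differ between the parental and the TRPV3-OE library. FOSL1 was the most abundant of the 10 transcripts in the parental cells and JUNB in the TRPV3-OE cells. FOS and FOSL1 were each about 2.5-fold lower in the TRPV3-OE library, JUNB was 1.55-fold higher, and ATF3, a stress-induced family member at a low level, was 2.24-fold higher. The level of FOS-family transcripts summed per length was 2.17-fold lower, while that of JUN-family transcripts differed by 1.08-fold. Each ratio is TRPV3-OE over parental after scaling by the trimmed mean of M-values (TMM). Its exact 95% interval covers counting error only, since 1 library a group gives no spread between cultures and no p-value. The interval takes reads as independent, but PCR copies are not independent molecules, so it can be too narrow even for counting error. In bulk RNA, fewer cells with a transcript and less transcript per cell cannot be told apart.

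Of the 10 genes 9 were measured, meaning that they had at least 100 counts over both libraries. A gene was called where its ratio passed 2-fold with the interval wholly on that side of 1. By this rule 1 of the 9 was higher, ATF3, against 5.31% of all 11466 measured genes, and 2 were lower, FOS and FOSL1, against 5.35%. These counts are 11.1% and 22.2% of the 9 genes, above the shares of all measured genes, of which 10.7% were called in either direction. With 9 genes, 1 gene is 11.1% of the family, so counts this small cannot tell whether the family differs from that background. The median log2 ratio of the 9 genes was -0.28, beside -0.03 for all measured genes, whose middle 50% lay between -0.36 and 0.30. The counting interval lay below a ratio of 1 in 6 of the 9 genes, beside 38.94% of all measured genes. It lay above 1 in 2 (JUNB and ATF3), beside 33.83%, and held 1 for FOSB.

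**Figure D1:**
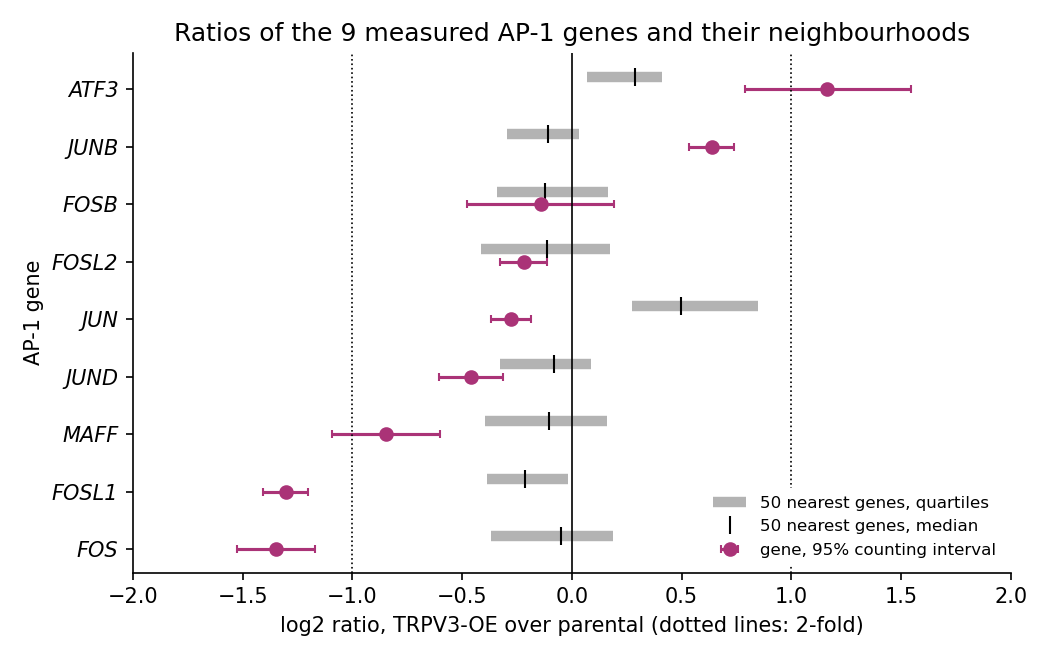
Horizontal axis, log2 ratio of TRPV3-OE over parental for the 9 measured AP-1 genes, with exact 95% counting intervals (points and bars). Grey bars and black ticks give the quartiles and median of the 50 measured genes nearest on the chromosome. FOS and FOSL1 lie below -1, ATF3 lies above 1, and JUN at -0.28 lies below a neighbourhood whose median is 0.50.

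Among the FOS proteins, which cannot dimerise with themselves, FOS itself (ENSG00000170345, chromosome 14, 75278774 to 75282230, plus strand, GRCh38) had 893 counts in the parental and 365 in the TRPV3-OE library. Its level was 52.1 against 20.5 CPM, a 2.54-fold lower value (2.25 to 2.88). FOSL1 (ENSG00000175592, chromosome 11, 65892049 to 65900573, minus strand) encodes FRA-1, a FOS protein that lacks the C-terminal activation domain of FOS. It had 2593 and 1092 counts, or 151 against 61.3 CPM, and was 2.47-fold lower (2.30 to 2.65). The log2 ratios of FOS and FOSL1, -1.35 and -1.30, differed by less than counting error. By the length of the gene models FOSL1 was 4.98 times as abundant as FOS (4.62 to 5.38) in the parental and 5.13 times (4.56 to 5.80) in the TRPV3-OE library. By the median length of the coding transcripts in GENCODE 29 it was 2.02 and 2.08 times as abundant, so the size of this ratio depends on the length used.

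The other FOS-family genes differed less. FOSL2 (ENSG00000075426, chromosome 2), which encodes FRA-2, had 1496 and 1335 counts, with a log2 ratio of -0.22 (-0.33 to -0.11). FOSB (ENSG00000125740, chromosome 19), an immediate early gene, had 156 and 147 counts and a log2 ratio of -0.14 (-0.48 to 0.19). At this depth a FOSB level up to 1.39-fold lower or 1.14-fold higher in TRPV3-OE cells lay within its interval. FOS and FOSB therefore did not keep their ratio between the libraries. By the length of the gene models FOS was 9.82 times as abundant as FOSB in the parental and 4.26 times in the TRPV3-OE library, and by the coding transcript length 23.0 and 9.96 times. The difference between the libraries, 2.31-fold (1.77 to 3.0), is the same under either length.

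Among the JUN proteins, the partners that every FOS protein needs, JUNB (ENSG00000171223, chromosome 19, 12791496 to 12793315, plus strand) had 1215 counts in the parental and 1963 in the TRPV3-OE library. Its level was 70.9 against 110.2 CPM, a log2 ratio of 0.64 (0.53 to 0.74), short of the 2-fold limit. JUN (ENSG00000177606, chromosome 1, 58780788 to 58784327, minus strand), the founding member and in many settings a stronger activator than JUNB, went the other way with 2134 and 1832 counts, a log2 ratio of -0.28 (-0.37 to -0.19). JUND (ENSG00000130522, chromosome 19), the most constitutively expressed JUN gene in many cell types, had 881 and 666 counts and a log2 ratio of -0.46 (-0.61 to -0.31). JUNB was thus the only one of the 3 JUN genes with a higher value in TRPV3-OE. Per length, JUNB and JUN were close in the parental library, at 1.11-fold (1.03 to 1.19), and JUNB was 2.08 times JUN (1.95 to 2.22) in the TRPV3-OE library.

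The remaining genes were scarce. ATF3 (ENSG00000162772, chromosome 1, 212565334 to 212620777, plus strand), induced by many stresses and often a repressor as a homodimer, had 86 counts in the parental and 200 in the TRPV3-OE library. Its level was 5.02 against 11.2 CPM, with a log2 ratio of 1.16 (0.79 to 1.54). This call ended when the median of its 50 nearest genes, 0.29, was subtracted, which left 0.87. MAFF (ENSG00000185022, chromosome 22), a small MAF protein without an activation domain of its own, had 377 and 218 counts, and its log2 ratio was -0.85 (-1.09 to -0.60). BATF3 (ENSG00000123685, chromosome 1), best known from dendritic cells, had 3 counts and 1 count and was not measured. For it the counts allowed a log2 ratio anywhere from -7.36 to 2.0.

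To compare transcripts with each other, counts were divided by the length of each gene model, between 1820 and 7157 bases, to give counts per kb per 1000000 counts (RPKM). In the parental library FOSL1 led at 80.2 RPKM (77.2 to 83.4), followed by JUNB at 39.0, JUN at 35.2, JUND at 27.6, FOS at 16.1 and FOSL2 at 12.2 RPKM. MAFF (3.92 RPKM), FOSB (1.64 RPKM), ATF3 (1.24 RPKM) and BATF3 (0.0646 RPKM) formed the low end. In the TRPV3-OE library JUNB led at 60.6 RPKM (57.9 to 63.3), followed by FOSL1 at 32.5, JUN at 29.1, JUND at 20.1, FOSL2 at 10.5 and FOS at 6.33 RPKM. Then came ATF3 at 2.78, MAFF at 2.18, FOSB at 1.49 and BATF3 at 0.0207 RPKM. All 18 pairs of neighbours in these orders differed beyond counting error, and the interval that came nearest to 1 was that of FOSB over ATF3 in the parental library (1.32-fold, 1.01 to 1.74). Besides JUNB and FOSL1, FOSL2 and FOS changed places, and ATF3 moved from below MAFF and FOSB to above both. FOSL1 in the parental and JUNB in the TRPV3-OE library also held first place by raw counts and with the median length of the coding transcripts in GENCODE 29, but the places of the other genes depended on the length used. With those transcript lengths FOS ranked 2 in the parental library, in place of 5.

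**Figure D2:**
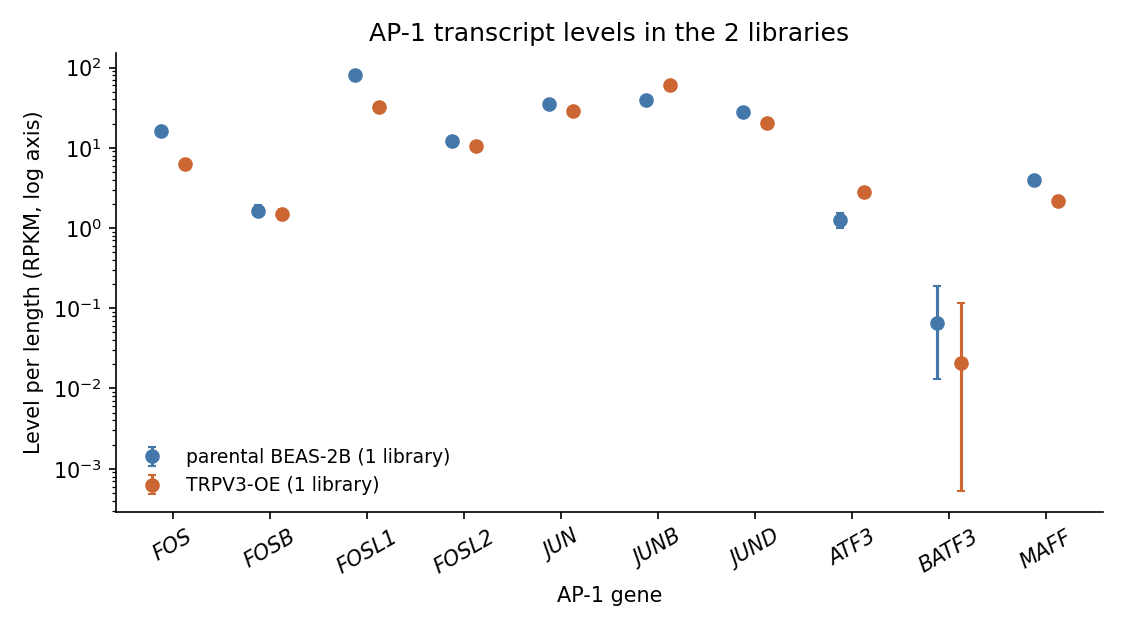
Vertical axis, level per length (RPKM, log axis) of the 10 AP-1 genes in the parental (blue) and TRPV3-OE (orange) libraries, with exact Poisson 95% intervals for counting error, which are smaller than the points where not visible. FOSL1 is highest in the parental library at 80.2 RPKM and JUNB in the TRPV3-OE library at 60.6 RPKM.

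The makeup of the family moved from the FOS to the JUN side. The 10 transcripts summed to 217 RPKM in the parental and 165 RPKM in the TRPV3-OE library. FOS-family transcripts went from 110.2 to 50.8 RPKM, or from 50.7% to 30.7% of that sum. JUN-family transcripts went from 101.8 to 109.7 RPKM, or from 46.9% to 66.3%. FOSL1 alone held 36.9% of the sum in the parental and 19.6% in the TRPV3-OE library, and JUNB held 17.9% and 36.6%. Within the JUN family the share of JUNB was 38.3% and 55.2%, that of JUN 34.6% and 26.5%, and that of JUND 27.1% and 18.3%. Without FOSL1 the FOS-family sum was 29.9 against 18.3 RPKM, and without JUNB the JUN-family sum was 62.8 against 49.1 RPKM. The ratio of FOS-family to JUN-family transcripts was 1.08 in the parental and 0.463 in the TRPV3-OE library. These are transcript levels, and neither protein nor dimers were measured.

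**Figure D3:**
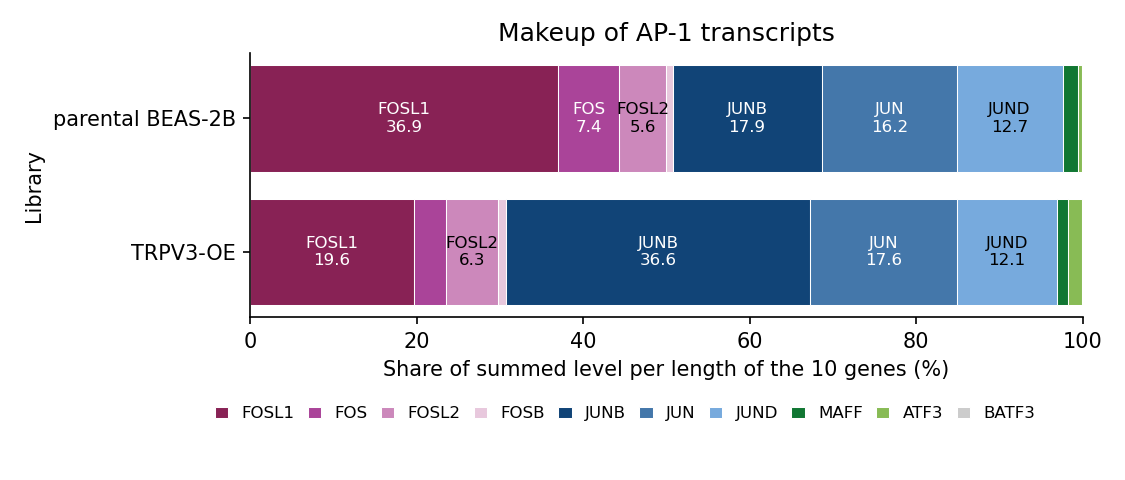
Each bar divides the summed level per length of the 10 AP-1 genes in 1 library into the share of each gene (percent); purple shades are the FOS family, blue shades the JUN family and green ATF3 and MAFF. The FOSL1 segment goes from 36.9% to 19.6% and the JUNB segment from 17.9% to 36.6%.

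The ratio of 1 member to another within a library does not depend on how the libraries are scaled. Between the 9 measured genes there are 36 such ratios, of which 31 differed between the libraries beyond counting error and 17 by at least 2-fold. The same genes recur in these ratios, and no such share was taken over pairs of all measured genes. The interval of a single gene held 1 in only 27.2% of all measured genes, but that is a different measure. Whether these counts set the family apart was therefore not tested. FOSL1 was 2.06 times JUNB (1.92 to 2.21) per length in the parental library, and JUNB was 1.86 times FOSL1 (1.73 to 2.01) in the TRPV3-OE library. By the coding transcript length these ratios were 3.24 and 1.19. Under either length that is a 3.84-fold shift (3.46 to 4.25) from FOSL1 toward JUNB. The shift from FOS toward JUNB was 3.95-fold (3.42 to 4.57), and that from FOS toward ATF3 5.69-fold (4.26 to 7.62). FOSL1 against FOSL2, the late FOS genes, shifted 2.12-fold (1.91 to 2.35) toward FOSL2. The intervals that held no shift were those of FOS against FOSL1 (0.893 to 1.19), FOSB against FOSL2, JUN and JUND, and FOSL2 against JUN (0.943 to 1.15).

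None of the 10 genes shared an exonic base with another gene on its strand, and the counts were made per strand, so overlap did not remove their reads. For 7 of the 9 measured genes the local median, taken over the log2 ratios of the 50 closest measured genes, lay between -0.22 and -0.05. The exceptions lie on chromosome 1, where that median was 0.50 around JUN (quartiles 0.27 and 0.85) and 0.29 around ATF3 (0.07 and 0.41). Relative to its neighbourhood, JUN had a log2 ratio of -0.77, JUNB 0.75, FOS -1.30, FOSL1 -1.09 and MAFF -0.74. The part of the neighbourhood in the JUN and ATF3 ratios was not tested. FOS lies 145 kb from JDP2, which encodes a bZIP repressor of AP-1, and JDP2 lies 48.3 kb from BATF, a family member of lymphoid cells. JDP2, named with BATF after their values were seen, had 245 and 153 counts, with a log2 ratio of -0.74 (-1.04 to -0.44), and BATF had 0 counts in both libraries.

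The relatives and regulators of AP-1 were followed in lists, and the plot of these lists shows most of their genes within 2-fold. Of 97 measured genes in 8 lists, 3 were called higher and 7 lower, or 10.3% in all, near the 10.7% of all measured genes. Among 5 measured genes of the other AP-1, MAF and JDP families 0 were called, and the highest per length, summed over both libraries, were the small MAF genes MAFK (779 and 854 counts, log2 ratio 0.08) and MAFG (690 and 1047 counts, 0.55). Among 16 other measured bZIP genes 0 were called (median log2 ratio -0.16). These included the stress factor gene ATF4 (4495 and 4096 counts, log2 ratio -0.19) and CEBPB, an inflammatory and differentiation factor gene (1493 and 2250 counts, 0.54).

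Upstream of AP-1, SRF and its cofactors had 0 of 6 genes called, with SRF itself at 1541 and 1554 counts (log2 ratio -0.04, -0.15 to 0.06) and the ETS-type cofactor gene ELK3 at -0.30. The log2 ratios of this list ran from -0.98 to 0.35. The lowest, just short of the 2-fold limit, was that of ELK1, named after its values were seen, beside a local median of -0.80. In the MAP kinase cascade, whose kinases act on FOS and JUN transcription and protein, 1 of 26 genes was higher and 1 lower, with a median of -0.03. Over all measured genes 5.31% were called higher and 5.35% lower, which is the background for each count in this paragraph. The kinase genes MAP2K1 and MAP2K2, which encode MEK1 and MEK2, had log2 ratios of 0.08 and -0.03. RPS6KA2, which encodes a ribosomal S6 kinase of the ERK pathway, was higher with 206 and 624 counts (2.91-fold). ARAF, a RAF kinase gene on the X chromosome, was lower with 1471 and 667 counts (2.29-fold), beside a local median of -0.80. MAP kinase phosphatases, which switch the cascade off, had 0 of 8 genes called (median -0.02). DUSP1, itself an immediate early gene, had 945 and 1568 counts (log2 ratio 0.67, 0.56 to 0.79), and DUSP6 a log2 ratio of 0.25. Of 9 genes for JUN ubiquitin ligases and for proteins that bind AU-rich mRNAs such as that of FOS, 1 was lower and 0 were higher. That was FBXW7, a ligase subunit gene for JUN, with 517 and 252 counts (2.13-fold), in a part of chromosome 4 where the local median was -0.71. HNRNPD and ZFP36L1, genes of mRNA-binding proteins, had log2 ratios of -0.79 and -0.57. Their local medians were -0.74 for HNRNPD, also on chromosome 4, and -0.21 for ZFP36L1.

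Other immediate early genes, which share inducing signals with FOS and JUNB, had 2 of 13 measured genes called higher and 0 lower, beside 5.31% and 5.35% of all measured genes, with a median log2 ratio of 0.03. EGR3, a zinc finger factor gene, went from 14 to 111 counts (log2 ratio 2.93, 2.12 to 3.85), and KLF4, an epithelial differentiation factor gene, from 142 to 318 counts (1.11, 0.82 to 1.40). CCN1 and IER3, the genes of the list with the highest level per length, had log2 ratios of -0.02 and 0.12. FOS, at -1.35, lay below all 13 of them, whose lowest value was -0.98, and JUNB, at 0.64, lay within their range. This depends on the count minimum. KLF2 (30 and 11 counts, log2 ratio -1.50, -2.65 to -0.47) and EGR2 (3 counts and 1 count, -1.64) were not measured and lay lower than FOS. Both are named after their values were seen. With a minimum of 1 count, 4 genes of the list were called higher and 1 lower.

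**Figure D4:**
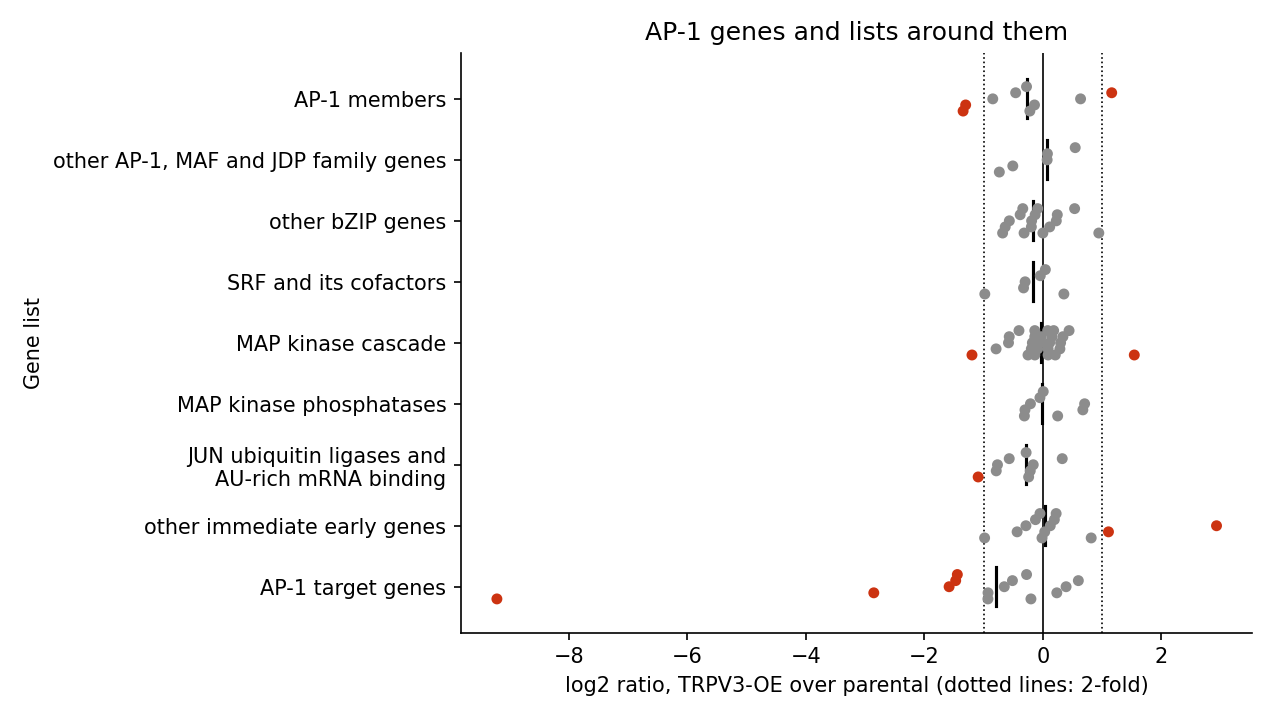
Horizontal axis, log2 ratio of TRPV3-OE over parental for each measured gene of the AP-1 family and of the 8 lists around it; red points are called at least 2-fold higher or lower, black ticks are medians. The MAP kinase list centres on -0.03, and the AP-1 target list has 5 called genes, all lower, beside 5.35% of all measured genes. Part of the target list was known to be lower when it was drawn up.

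Of 14 measured genes widely described as AP-1 targets, 5 were called lower in TRPV3-OE cells and 0 higher, beside 5.35% and 5.31% of all measured genes. The counting interval lay below 1 in 10 of them, beside 38.94% of all measured genes, and above 1 in 3, beside 33.83%. The median log2 ratio was -0.79, beside -0.03, and the highest was 0.60. With the local medians subtracted, the median of the list was -0.49 and 4 genes were called lower. Part of this list was known to be lower when it was drawn up. Among the genes called, VIM, the gene of the intermediate filament vimentin, had 13736 and 24 counts (log2 ratio -9.22). The EGF receptor ligand gene HBEGF had 366 and 127 counts and a log2 ratio of -1.58. The hyaluronan receptor gene CD44 was 2.77-fold lower and AREG, another gene of an EGF receptor ligand, 2.72-fold. CD44 and AREG lay in neighbourhoods with medians of -0.72 and -0.70, and were at -0.75 and -0.74 once these were subtracted. EZR, the gene of the membrane-actin linker ezrin and an abundant member of the list, had 14819 and 8097 counts and a log2 ratio of -0.93. MMP1, the collagenase gene in which the TPA response element is classically studied, was not measured and is named after its values were seen: it had 43 counts in the parental and 0 in the TRPV3-OE library. MMP9, also not measured and named after its values were seen, had 8 and 17 counts, with an interval that held 1. Whether the levels of FOS, FOSL1 or JUNB bear on these genes was not tested.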

How the data were processed

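The authors deposited an unnormalised read count for each gene, made with featureCounts 1.5.0-p3 on strand setting 2 and Ensembl release 87 gene models of GRCh38.p7, per the file headers. The submitters' processing notes also name STAR and DESeq2, with no version. By the default of that command, reads with several alignments or over several genes were not counted. Symbols matched 56948 of 58051 IDs.

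TMM scaling in edgeR 4.0.16 (R 4.3.3) gave factors of 0.981 and 1.02, so that 1 count was worth 0.0584 CPM in parental and 0.0562 CPM in TRPV3-OE cells. No model was fitted. Ratios carry exact conditional binomial (Clopper-Pearson) 95% intervals, levels exact Poisson intervals, and shifts between members exact conditional odds ratio intervals. In ratios 0.5 stood in for a count of 0. RPKM used the length column of the files, which joins the exons of all transcripts and so lowers genes with many isoforms. The members and lists were chosen with earlier results of these data known. All 10 members are named, and of each list up to 6 called genes and the 2 with the highest level per length, though some genes in the lists are not reported here by name. Other scalings, count minimums, fold limits, a prior count and subtraction of the local median were tried. The ratio calculation was tested on simulated data. Python 3.11.15 with scipy 1.17.1 was used.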

Additional observations from a re-analysis of the deposited data

How the results depend on the processing

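No paired analysis was possible because there is only 1 library a group, which also leaves no replicate to omit. The log2 ratios of the 10 members stayed within their counting intervals in all 40 values under the scalings by total counts, DESeq2 1.42.0 size factors and upper quartile and a prior count of 5, and none changed sign there. Scaling moved the median of all measured genes from -0.03 to at most 0.03. Subtraction of the local median of 50 genes moved FOSL1 to -1.09, FOSL2 to -0.11, JUN to -0.77 and JUNB to 0.75. The number of members called higher was 1, and became 0 with that subtraction, with a minimum of 500 counts and at 4-fold, and 2 at 1.5-fold; the number called lower, 2, became 0 at 4-fold. Genes called higher and lower over all genes numbered 1347 and 1121 with a minimum of 1 count, 1094 and 942 with 20, 245 and 323 with 500, 151 and 159 at 4-fold, and 1455 and 1627 at 1.5-fold, since such limits set by construction how many genes qualify. Genes of the 8 lists called higher, 3, became 5 with a minimum of 1 count, 1 with 500, 8 at 1.5-fold and 1 at 4-fold, and those called lower, 7, became 11 with a minimum of 1 count, 18 at 1.5-fold and 2 at 4-fold. For single lists, 26 of 200 values moved. Family shares depend on length: in counts not divided by length the FOS family held 52.2% in the parental and 37.6% in the TRPV3-OE library and the JUN family 43.0% and 57.1%. With the median length of GENCODE 29 coding transcripts, chosen after seeing the data, the FOS family held 60.7% and 39.2% and the JUN family 34.6% and 52.2%. Leaving out the highest member, FOSL1 in the parental and JUNB in the TRPV3-OE library, gave 21.9% and 48.4% for the FOS family and 74.3% and 46.8% for the JUN family, an order set by construction, since a different gene is left out in each. With the same gene left out of both libraries, chosen after seeing the data, the ratio of FOS-family to JUN-family transcripts went from 0.294 to 0.167 without FOSL1, from 1.75 to 1.03 without JUNB and from 0.477 to 0.372 without both, lower in TRPV3-OE each time. JUNB, rank 2 in the parental library, had rank 4 under either length alternative. A gene with few counts, such as ATF3 or FOSB, has a wide interval, and small differences in it were not detectable.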
